A study of Mus musculus with 4 samples.

Results

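The 8 Toll-like receptor genes Tlr1, Tlr2, Tlr3, Tlr4, Tlr6, Tlr7, Tlr9 and Tlr13, with the partner genes Cd14 and Ly96, were described in RAW264.7 cells, a mouse macrophage line transformed by a leukaemia virus. These 10 genes were chosen by symbol from a fixed list, out of 22554 genes named once in each of the deposited tables. The study sequenced mRNA from 2 libraries of RAW264.7 cells in coculture with CT26, a colon carcinoma line of the mouse, and from 2 libraries of RAW264.7 cells without tumour cells (mock). Coculture 1 and mock 1 share a deposited table (pair 1), and coculture 2 and mock 2 share the other (pair 2). Both are lines grown in vitro, RAW264.7 in DMEM and CT26 in RPMI1640. The length of the coculture, the cell ratio and the means of separating macrophages from tumour cells were not given in the sources used here.

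Toll-like receptors are membrane proteins that bind microbial products or products of damaged cells through a horseshoe of leucine-rich repeats. They signal through a cytoplasmic TIR domain, which recruits the adaptors MyD88 or TRIF, and the cascade activates NF-kappaB, MAP kinases and interferon regulatory factors. TLR4, with its partner LY96 and with CD14 as the carrier of the ligand, senses bacterial lipopolysaccharide. TLR2 pairs with TLR1 or TLR6 to sense lipopeptides, and all of these act at the cell surface. TLR3, TLR7, TLR9 and TLR13 act in endosomes and sense nucleic acids. Macrophages carry most of these receptors and use them to start the release of cytokines and chemokines.

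Tlr1 and Tlr6 are neighbouring paralogs on chromosome 5, and the stretch shown here is the longest that their coding sequences share without a mismatch. It is 229 bases long and lies in a coding exon of each gene, at chr5:64925537-64925765 in Tlr1 and chr5:64953828-64954056 in Tlr6 (GRCm38, GENCODE M21, minus strand), from base 1468 to 1696 of the Tlr1 coding sequence.
Tlr1 and Tlr6: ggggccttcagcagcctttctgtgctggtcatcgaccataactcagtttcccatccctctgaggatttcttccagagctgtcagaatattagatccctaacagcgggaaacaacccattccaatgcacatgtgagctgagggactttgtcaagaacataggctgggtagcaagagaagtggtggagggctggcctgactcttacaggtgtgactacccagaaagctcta
A read wholly within this stretch cannot be assigned to either gene by its bases. Of all 50-base windows in the GENCODE transcripts, 13.6% of those of Tlr1 also occur in Tlr6, and 12.3% of those of Tlr6 also occur in Tlr1. How the authors treated reads that fit several genes is not given in the sources used here, so the values of these paralogs are uncertain. Counting every other gene, 15.4% of the Tlr1 windows occur in 1 or more of 307 genes, and 12.3% of the Tlr6 windows in 1 or more of 2. Of the windows of Tlr3, 5.30% also occur in the predicted gene Gm45542. For Tlr4 the share was 0.216%, and no window of Tlr2, Tlr7, Tlr9, Tlr13, Cd14 or Ly96 occurs in another gene.

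Promoter windows (250 bases before to 50 after the start site, RefSeq, GRCm38.p6) were searched for 6 members, Tlr1, Tlr2, Tlr3, Tlr6, Tlr9 and Tlr13. No window was held for Tlr4, Tlr7 and Ly96, and Cd14 was left out of the search. Capitals mark matches on either strand to 5 motifs. These are kappaB (GGG and TTTCC, 2 bases apart), the interferon-stimulated response element (GAAA and GAAA, 2 bases apart), the PU.1 core (GAGGAA), AP-1 (TGA and TCA, 1 base apart) and C/EBP (TTGC and AA, 2 bases apart). The windows shown are those of Tlr13, which was lower in coculture in both pairs, at chrX:106143025-106143324 (plus strand), and Tlr2, the most abundant receptor transcript, at chr3:83841559-83841858 (minus strand). Also shown are Tlr3, at chr8:45410331-45410630 (minus strand), and 1 of the 2 annotated starts of Tlr6, at chr5:64959117-64959416 (minus strand), which went opposite ways in the pairs.
Tlr13: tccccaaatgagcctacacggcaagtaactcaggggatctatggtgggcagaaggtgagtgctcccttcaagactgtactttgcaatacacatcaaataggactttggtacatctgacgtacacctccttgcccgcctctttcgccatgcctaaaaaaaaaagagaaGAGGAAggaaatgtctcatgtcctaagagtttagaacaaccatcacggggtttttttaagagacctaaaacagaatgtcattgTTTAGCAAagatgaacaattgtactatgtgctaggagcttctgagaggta
Tlr2: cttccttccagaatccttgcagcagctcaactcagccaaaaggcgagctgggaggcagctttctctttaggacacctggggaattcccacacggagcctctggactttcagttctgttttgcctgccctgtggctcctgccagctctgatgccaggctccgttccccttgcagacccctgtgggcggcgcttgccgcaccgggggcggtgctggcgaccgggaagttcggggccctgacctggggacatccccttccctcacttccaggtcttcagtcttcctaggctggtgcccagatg
Tlr3: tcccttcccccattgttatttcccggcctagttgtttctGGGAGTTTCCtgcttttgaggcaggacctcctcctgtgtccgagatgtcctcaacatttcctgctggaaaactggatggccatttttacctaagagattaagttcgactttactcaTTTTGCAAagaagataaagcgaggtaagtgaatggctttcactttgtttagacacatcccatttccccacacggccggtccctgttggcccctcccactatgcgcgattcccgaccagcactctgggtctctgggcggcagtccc
Tlr6: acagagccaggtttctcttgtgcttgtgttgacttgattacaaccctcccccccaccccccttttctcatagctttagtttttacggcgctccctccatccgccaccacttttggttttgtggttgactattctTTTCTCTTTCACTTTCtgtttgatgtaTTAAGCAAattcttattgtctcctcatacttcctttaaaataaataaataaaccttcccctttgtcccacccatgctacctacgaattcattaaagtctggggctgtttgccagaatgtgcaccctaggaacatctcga
The Tlr13 window held a PU.1 core, which 28.3% of all 32851 RefSeq promoter windows of the same length also hold, and a C/EBP motif (10.8% of windows). No searched motif lay in the Tlr2 window. The kappaB letters searched are a fixed form, and near forms such as gggaattccc, which the Tlr2 window holds, were not counted. The Tlr3 window held a kappaB motif (1.63% of windows) and a C/EBP motif. The Tlr6 window shown held 2 overlapping matches to the interferon-stimulated response element (3.44% of windows) and a C/EBP motif. No searched motif lay in the window of the other Tlr6 start. Among the other member windows, that of Tlr9 held 2 PU.1 cores and an AP-1 motif (7.81% of windows), and 1 of the 2 Tlr1 windows held a PU.1 core. These matches describe letters only.

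Levels are given as the authors' deposited FPKM, which divides fragments by gene length and library depth, so different genes can be set side by side per length. Read totals were not used here. Multiplied by GENCODE M21 exon lengths, low FPKM values showed a repeated step, and read as 1 read this step put the libraries at about 16200000 and 12200000 reads for coculture 1 and 2, and 15400000 and 15700000 for mock 1 and 2. On this scale 35.2% to 39.0% of the values between 0.5 and 4.5 reads lay within 0.05 of a whole number and the rest did not, so all read numbers here are rough. On this estimate Cd14 rested on 9643 to 48685 reads a library, Tlr2 on 2649 to 7465, and Tlr3, the lowest member, on 58 to 104. The library labels matched the cell type: the macrophage markers Csf1r (397 to 637 FPKM) and Cd68 (549 to 693 FPKM) were abundant in every library. Of the macrophage marker list, whose 9 genes include Cd14 itself, the summed level was 9835 and 12698 FPKM in coculture 1 and 2, against 9342 and 5387 FPKM in mock 1 and 2, mostly from Lyz2. Mertk stood at no more than 0.03 FPKM. The 11 epithelial markers summed to 0.166 and 0.045 FPKM in coculture 1 and 2, against 0.143 and 0 FPKM in mock 1 and 2, with Epcam and Krt18 listed at 0 in all 4 libraries. The 11 mesenchymal markers summed to 2.66 and 1.94 FPKM in coculture 1 and 2, against 3.004 and 1.81 FPKM in mock 1 and 2; each of these sums differed by under 1 FPKM within a pair. The 7 lymphoid markers stayed at or under 0.132 FPKM in sum in every library. The 7 granulocyte markers summed to 2.47 and 2.90 FPKM in coculture 1 and 2, against 1.505 and 0.162 FPKM in mock 1 and 2, nearly all of it S100a8. In such bulk libraries, fewer cells of a type and less RNA per cell cannot be told apart.

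All 10 members had at least 1 FPKM in at least 2 libraries and were tested among 10202 genes. Each difference is that of coculture minus mock in log2(FPKM + 1), with limma's moderated standard error after the ± sign and n = 2 pairs throughout. Limma's p-values were adjusted by the Benjamini-Hochberg method over all tested genes, with the pair as a block. No member passed an adjusted p of 0.05 in either direction, against 0.127% of all tested genes that passed as higher in coculture (13 genes) and 0% that passed as lower. After each library was centred on its median, 85 genes passed as higher and 18 as lower. With the bound of 0.05 set on the unadjusted p, 1 member was higher (Cd14) and 2 were lower (Tlr7 and Tlr13), while 5.26% of all tested genes were higher and 9.45% were lower at that bound. A 2-fold difference of 1 sign in each pair was reached by Cd14 alone (1.02% of tested genes were higher by this rule and 0.353% lower). By sign alone, 3 members were higher in both pairs (Cd14, Ly96 and Tlr1), 3 were lower (Tlr4, Tlr7 and Tlr13) and 4 went opposite ways (Tlr2, Tlr3, Tlr6 and Tlr9), against 21.5%, 42.2% and 35.8% of tested genes. The median difference of the members was 0.12, or -0.10 in pair 1 and 0.15 in pair 2. Over all tested genes the median was -0.07, or -0.09 in pair 1 and -0.06 in pair 2.

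**Figure D1:**
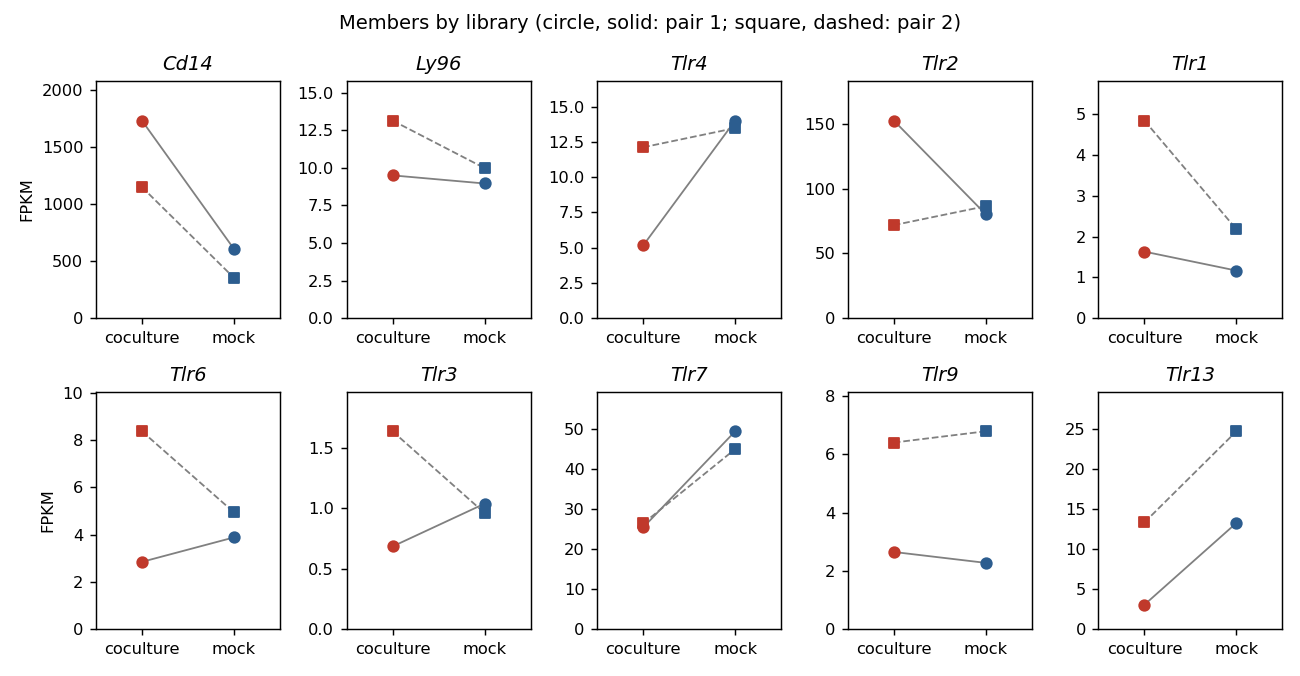
FPKM of each of the 10 members in coculture (left, red) and mock (right, blue), 1 panel a gene with its own axis from 0. Circles joined by a solid line are pair 1 and squares joined by a dashed line are pair 2. Cd14 was higher and Tlr7 and Tlr13 were lower in coculture in both pairs.

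Cd14, which encodes the surface protein that passes lipopolysaccharide to LY96 and TLR4, was the member with the largest higher value in coculture. It stood at 1732 and 1149 FPKM in coculture 1 and 2, against 607 and 354 FPKM in mock 1 and 2. Both coculture libraries lay above both mock libraries, as for 10.3% of tested genes. The within-pair ratios were close to each other, at 2.85-fold in pair 1 and 3.25-fold in pair 2. The difference was 1.60 ± 0.15 (limma adjusted p = 0.0623), which missed the bound. After each library was centred on its median the limma adjusted p was 0.0375, and after quantile normalization 0.0428, so Cd14 passed under these 2 scalings (adjusted p 0.0375 to 0.99997 over 13 alternatives). By level, Cd14 was already among the most abundant transcripts. It ranked 9th and 19th of 10202 tested genes in coculture 1 and 2, and 46th and 103rd in mock 1 and 2.

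Ly96 encodes the small secreted protein that holds lipopolysaccharide in the TLR4 complex. Its level was 9.50 and 13.2 FPKM in coculture 1 and 2, against 8.96 and 9.99 FPKM in mock 1 and 2. The coculture 1 level lay between those of the mock libraries, so the groups overlapped, and the difference was 0.22 ± 0.16 (limma adjusted p = 0.557). Tlr4 itself, the lipopolysaccharide receptor, stood at 5.16 and 12.1 FPKM in coculture 1 and 2, against 14.0 and 13.5 FPKM in mock 1 and 2. Both coculture libraries lay below both mock libraries, as for 21.5% of tested genes, but the gap was uneven. Tlr4 was at 0.368 of its mock level in pair 1 and at 0.899 in pair 2. Its difference was -0.71 ± 0.31 (limma adjusted p = 0.380), with -1.29 in pair 1 and -0.14 in pair 2. Without coculture 1, in an unblocked fit, the Tlr4 difference was -0.17, and without coculture 2 it was -1.26.

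In these libraries the RNA ratios of the lipopolysaccharide receptor components differed between the groups. The differences of Cd14, Ly96 and Tlr4 given above did not pass the bound. The ratio of Cd14 to Tlr4 FPKM was 336 and 94.8 in coculture 1 and 2, against 43.3 and 26.2 in mock 1 and 2. The ratio of Ly96 to Tlr4 FPKM was 1.84 and 1.08 in coculture 1 and 2, against 0.640 and 0.741 in mock 1 and 2. Both ratios were higher in each coculture library than in either mock library, and both moved further in pair 1, where Tlr4 was lowest. They are ratios of RNA levels per length, given as descriptions with no test.

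Tlr2, which encodes the shared subunit of the lipopeptide receptors, was the most abundant receptor transcript in all 4 libraries. Its level was 153 and 71.9 FPKM in coculture 1 and 2, against 80.2 and 86.5 FPKM in mock 1 and 2. The mock libraries lay close together, and the coculture libraries lay on either side of them. Tlr2 was thus 1.90-fold higher in pair 1 and at 0.831 of its mock level in pair 2, with a mean difference of 0.33 ± 0.30 (limma adjusted p = 0.650). Its sign turned without coculture 1, in an unblocked fit, to -0.21.

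The partners of TLR2 were far lower. Tlr1 stood at 1.63 and 4.85 FPKM in coculture 1 and 2, against 1.17 and 2.18 FPKM in mock 1 and 2. It was higher in both pairs, by 1.40-fold and 2.22-fold, though coculture 1 lay between the mock libraries (difference 0.58 ± 0.23, limma adjusted p = 0.361). Without coculture 2, in an unblocked fit, the Tlr1 difference was 0.0040, and without coculture 1 it was 1.155. Tlr6 stood at 2.84 and 8.39 FPKM in coculture 1 and 2, against 3.88 and 4.95 FPKM in mock 1 and 2. Coculture 1 was the lowest and coculture 2 the highest of the 4 libraries, so the pairs went opposite ways (difference 0.16 ± 0.29, limma adjusted p = 0.827). The ratio of Tlr6 to Tlr1 FPKM was 1.74 and 1.73 in coculture 1 and 2, against 3.33 and 2.27 in mock 1 and 2. This ratio was lower in both coculture libraries, and it is subject to the shared sequence given above.

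Tlr7 encodes an endosomal receptor for single-stranded RNA and was the second most abundant receptor transcript. It stood at 25.3 and 26.3 FPKM in coculture 1 and 2, against 49.4 and 44.9 FPKM in mock 1 and 2. The libraries of a group lay close together. Both coculture libraries lay below both mock libraries, as for 21.5% of tested genes. Tlr7 was at 0.513 of its mock level in pair 1 and at 0.586 in pair 2, a difference of -0.84 ± 0.12 (limma adjusted p = 0.125), which did not pass. Over 13 alternatives the Tlr7 difference kept its sign and ranged from -0.91 to -0.78, the narrowest range of the 10 members.

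Tlr13 encodes an endosomal receptor for bacterial ribosomal RNA that mice have and humans lack. It stood at 3.02 and 13.3 FPKM in coculture 1 and 2, against 13.3 and 24.7 FPKM in mock 1 and 2. Pair 2 had higher levels in both groups, so coculture 2 (13.32 FPKM) lay just above mock 1 (13.25 FPKM), and the groups overlapped. Levels in different pairs, here and for Tlr1 and Tlr9, may not compare, since the tables may have been normalized separately. As an example chosen after its values were seen, Adnp differed far more between the pairs than within them. It stood at 23.5 and 1.32 FPKM in coculture 1 and 2, against 30.2 and 1.26 FPKM in mock 1 and 2. Within the pairs Tlr13 was at 0.228 and 0.539 of its mock level, and its difference of -1.33 ± 0.27 (limma adjusted p = 0.188) was the lowest of the 10. On the estimated read scale this was 211 reads in coculture 1 against 876 in mock 1, and 701 in coculture 2 against 1674 in mock 2. Without coculture 1, in an unblocked fit, the Tlr13 difference was -0.42, and without coculture 2 it was -2.25.

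Tlr9, the receptor for unmethylated CpG DNA, differed more between the pairs than within them. It stood at 2.65 and 6.41 FPKM in coculture 1 and 2, against 2.27 and 6.80 FPKM in mock 1 and 2. Its difference was 0.04 ± 0.18 (limma adjusted p = 0.926), and its sign turned to -0.0021 after rescaling to a common total. Tlr3, the receptor for paired-strand RNA and the lowest member in every library, stood at 0.684 and 1.64 FPKM in coculture 1 and 2, against 1.04 and 0.961 FPKM in mock 1 and 2. As with Tlr6, coculture 1 was the lowest and coculture 2 the highest library (difference 0.08 ± 0.26, limma adjusted p = 0.912). Such opposite signs were shown by 35.8% of tested genes. Irf7, a transcription factor gene of the interferon response chosen after its values were seen, also showed them. It stood at 17.1 and 44.4 FPKM in coculture 1 and 2, against 19.4 and 1.13 FPKM in mock 1 and 2. Its part in the values of Tlr3 and Tlr6 was not tested.

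**Figure D2:**
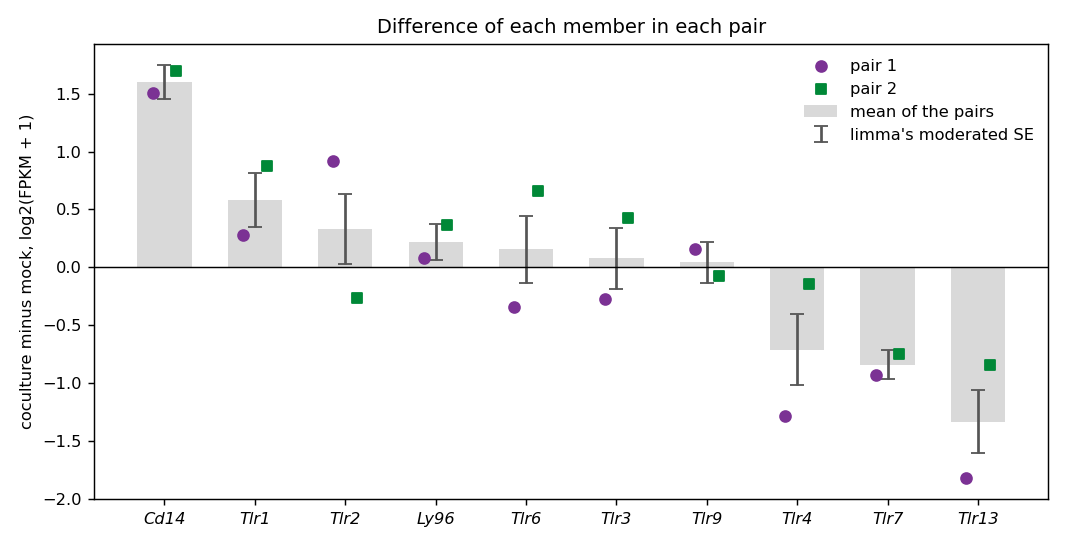
Difference of each of the 10 members, as coculture minus mock in log2(FPKM + 1), in pair 1 (circles) and pair 2 (squares), ordered by the mean of the pairs (bars), with limma's moderated standard error. Cd14, at 1.60, stands highest and Tlr13, at -1.33, lowest, and the pairs lie on opposite sides of 0 for Tlr2, Tlr3, Tlr6 and Tlr9.

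**Figure D3:**
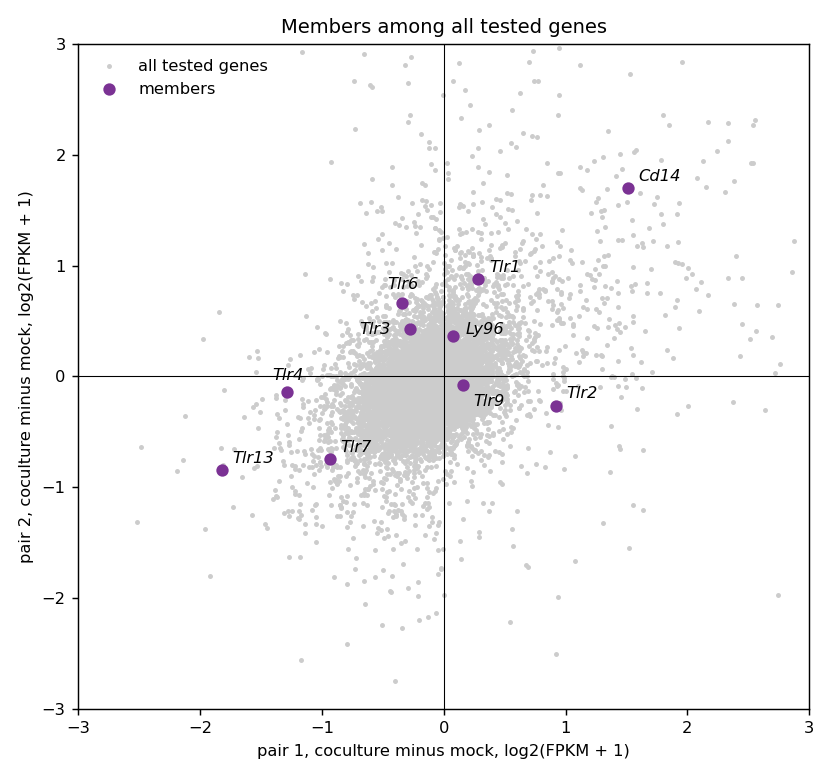
Difference in pair 1 (horizontal) against difference in pair 2 (vertical), as coculture minus mock in log2(FPKM + 1), for all 10202 tested genes (grey, with 51 beyond the axes) and the members (purple). Cd14 lies at the upper right, Tlr7 and Tlr13 at the lower left, and the other members nearer to the axes.

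As a group, the 8 receptor transcripts summed to 194 and 145 FPKM in coculture 1 and 2, against 165 and 185 FPKM in mock 1 and 2, so the sums overlapped. The surface receptors Tlr1, Tlr2, Tlr4 and Tlr6 summed to 162 and 97.2 FPKM in coculture 1 and 2, against 99.3 and 107 FPKM in mock 1 and 2. The endosomal receptors Tlr3, Tlr7, Tlr9 and Tlr13 summed to 31.7 and 47.7 FPKM in coculture 1 and 2, against 65.9 and 77.4 FPKM in mock 1 and 2. The endosomal sums of the groups did not overlap, and Tlr7 and Tlr13 made up most of them. The endosomal share of all receptor FPKM was 16.3% and 32.9% in coculture 1 and 2, against 39.9% and 41.9% in mock 1 and 2. Tlr2 alone took 78.7% and 49.6% in coculture 1 and 2, against 48.5% and 46.9% in mock 1 and 2. Coculture 1 thus stood apart from the other 3 libraries in its receptor makeup. Within each library, Cd14, Tlr2 and Tlr7 were the 3 most abundant in that order among the 10 members, and Tlr1 and Tlr3 the least abundant.

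**Figure D4:**
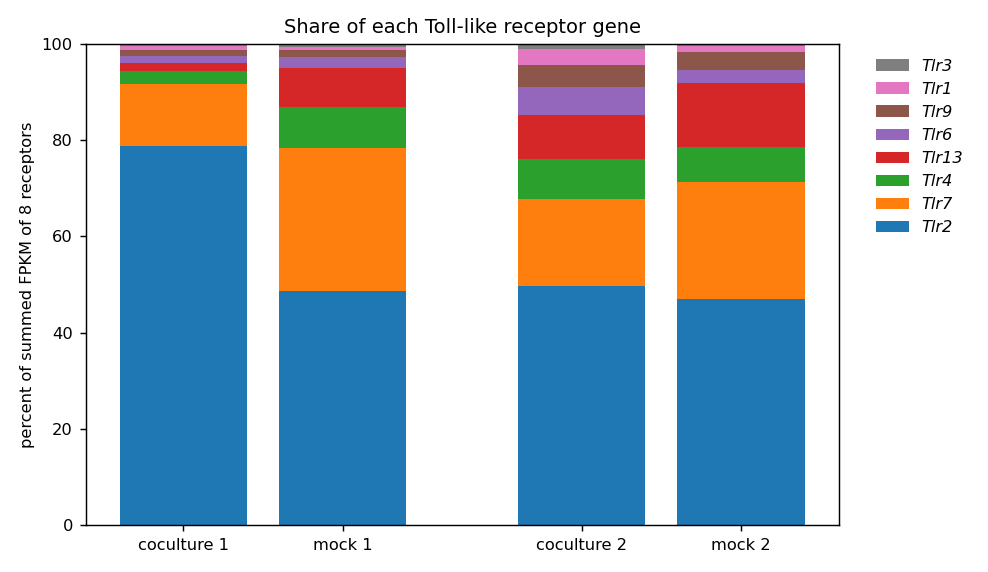
Share of each Toll-like receptor gene in the summed FPKM of the 8 receptors, in percent, as stacked bars for coculture 1, mock 1, coculture 2 and mock 2. Tlr2 (bottom) takes 78.7% in coculture 1 and 46.9% to 49.6% in the other libraries, and Tlr7 (second from the bottom) is smaller in each coculture library than in its mock library.

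The other Toll-like receptor genes had low or zero listed values. Tlr5, Tlr11 and Tlr12 were listed at 0 in all 4 libraries. A listed 0 need not mean that no RNA was present: Amd1, a polyamine synthesis gene chosen after its values were seen, stood at 37.6 FPKM in coculture 1 and 36.5 FPKM in mock 1 but was listed at 0 in pair 2. Tlr8, an endosomal receptor gene next to Tlr7 on the X chromosome, stood at 0.156 and 0.049 FPKM in coculture 1 and 2, against 0.887 and 0.176 FPKM in mock 1 and 2. These Tlr8 levels correspond to an estimated 9 and 2 reads in coculture 1 and 2, against 49 and 10 reads in mock 1 and 2, below the level at which a gene was tested.

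Genes that act with the receptors were read from 9 lists holding 119 genes other than the members, of which 100 were tested. Of these, 4 rose past the test (Cxcl2, Il1b, Ccl3 and Clec4e) and 0 fell, against 0.127% and 0% of all tested genes. Il1b and Cxcl2 needed their coculture values to be tested. By unadjusted p, 29 of the 100 were higher and 13 lower, against 5.26% and 9.45% of all tested genes. The 29 include genes, such as Il1b and Cd40, that were tested only through coculture. Other partners of the receptors showed both signs: of 8 tested, 0 passed (3 were higher and 1 lower by unadjusted p), with a median of -0.21. Cd180, a receptor-like relative of TLR4 that lacks the TIR domain, stood at 27.5 and 41.7 FPKM in coculture 1 and 2, against 59.2 and 74.3 FPKM in mock 1 and 2 (difference -0.95 ± 0.13, limma adjusted p = 0.114). Its partner gene Ly86, a homologue of Ly96, stood at 87.1 and 77.7 FPKM in coculture 1 and 2, against 98.6 and 187 FPKM in mock 1 and 2. For each of these genes both coculture libraries lay below both mock libraries, as for 21.5% of tested genes. Cd36, a scavenger receptor that works with TLR2, stood at 166 and 122 FPKM in coculture 1 and 2, against 127 and 58.3 FPKM in mock 1 and 2. Itgb2, the integrin chain that pairs with CD11b, differed by 0.53 ± 0.11 (limma adjusted p = 0.190).

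Folding and trafficking genes showed a median near 0 (-0.0090 over 20 tested), and 0 passed. Unc93b1, which carries the endosomal receptors out of the endoplasmic reticulum and was chosen after its values were seen, stood at 96.2 and 158 FPKM in coculture 1 and 2, against 103 and 143 FPKM in mock 1 and 2. Unlike Tlr7 and Tlr13, it went opposite ways in the pairs, as did 35.8% of tested genes. Slc15a4, an endolysosomal transporter needed for TLR7 and TLR9 signalling, stood at 15.5 and 17.5 FPKM in coculture 1 and 2, against 21.5 and 27.3 FPKM in mock 1 and 2 (difference -0.53 ± 0.13, limma adjusted p = 0.230). Among endosomal proteases that can cleave these receptors, Lgmn differed by -0.73 ± 0.19 (limma adjusted p = 0.244) and Ctsl by 0.80 ± 0.26 (limma adjusted p = 0.305). Ap4b1, an adaptor-complex subunit gene, differed by 0.56 ± 0.20 (limma adjusted p = 0.327).

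Of the TIR-domain adaptors and the linked adaptor Pik3ap1, 5 were tested and 0 passed, with a median of -0.03. Myd88, used by all members of the family but TLR3, stood at 58.3 and 50.1 FPKM in coculture 1 and 2, against 57.1 and 53.4 FPKM in mock 1 and 2. Tirap, the bridging adaptor of TLR2 and TLR4, differed by -0.09 ± 0.15 (limma adjusted p = 0.809). Ticam1, which encodes TRIF, stood at 10.4 and 15.3 FPKM in coculture 1 and 2, against 5.80 and 11.4 FPKM in mock 1 and 2 (difference 0.57 ± 0.16, limma adjusted p = 0.273). Ticam2, which encodes the TRIF-bridging adaptor of TLR4, stood at 4.15 and 9.79 FPKM in coculture 1 and 2, against 6.92 and 16.2 FPKM in mock 1 and 2 (difference -0.64 ± 0.15, limma adjusted p = 0.213). These 2 adaptors of the TRIF branch lay on opposite sides of 0, each with the same sign in both pairs. Pik3ap1 differed by 0.28 ± 0.16 (limma adjusted p = 0.491), and Sarm1 did not exceed 0.21 FPKM.

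Among 20 kinase and ubiquitin ligase genes below the adaptors, 0 passed and the median was 0.03. Irak2, which sustains signalling from the MyD88 complex, stood at 31.8 and 32.5 FPKM in coculture 1 and 2, against 10.2 and 12.9 FPKM in mock 1 and 2 (difference 1.41 ± 0.14, limma adjusted p = 0.0702). Ikbke, a kinase of the interferon branch, stood at 24.9 and 21.4 FPKM in coculture 1 and 2, against 1.48 and 4.12 FPKM in mock 1 and 2 (difference 2.76 ± 0.33, limma adjusted p = 0.0964). These were the only 2 of the 20 that were at least 2-fold higher in both pairs (1.02% of all tested genes). Tab1 and Mapk14, a kinase partner and the p38 alpha kinase, differed by -0.44 ± 0.14 and -0.38 ± 0.11 (limma adjusted p = 0.296 and 0.278).

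Negative regulators went both ways: of 21 tested, 10 were higher and 9 lower in both pairs, against 21.5% and 42.2% of all tested genes. Of the 21, 0 passed the test, and the median was 0.01. By unadjusted p, 8 were higher and 4 lower, against 5.26% and 9.45% of all tested genes. Zc3h12a, which encodes an RNase that degrades cytokine transcripts, stood at 67.5 and 42.4 FPKM in coculture 1 and 2, against 5.62 and 6.37 FPKM in mock 1 and 2 (difference 2.96 ± 0.23, limma adjusted p = 0.0544). Nfkbia, the NF-kappaB inhibitor gene, differed by 2.22 ± 0.18 (limma adjusted p = 0.0575) and Tnip1, a ubiquitin-binding inhibitor, by 1.93 ± 0.15 (limma adjusted p = 0.0544). Tnfaip3, the A20 deubiquitinase gene, stood at 10.6 and 6.65 FPKM in coculture 1 and 2, against 0.964 and 4.75 FPKM in mock 1 and 2. Its coculture libraries both lay above both mock libraries, as for 10.3% of tested genes. The difference was 2.56 in pair 1 but 0.41 in pair 2. Nfkbid, another NF-kappaB inhibitor gene, chosen after its values were seen, differed by 1.40 ± 0.16 (limma adjusted p = 0.0907). It joined Zc3h12a, Nfkbia and Tnip1 as the 4 that were at least 2-fold higher in both pairs on the log2(FPKM + 1) scale (1.02% of all tested genes). The 4 lower by unadjusted p, also chosen after their values were seen, were the inhibitory receptor gene Cd300a (-1.01), the transcription factor gene Atf3 (-0.91) and the phosphatase genes Inpp5d (-0.47) and Ptpn6 (-0.38).

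The interferon regulatory factors that endosomal receptors and TRIF use had a median of -0.28 over 5 tested, and 0 passed. Irf8, a lineage factor, differed by -0.43 ± 0.12 (limma adjusted p = 0.266), Irf1 by -0.48 ± 0.19 (limma adjusted p = 0.354) and Irf5, which acts with MyD88, by -0.28 ± 0.11 (limma adjusted p = 0.352). Irf3, used by TRIF, stood between 20.6 and 21.8 FPKM in all 4 libraries. Irf7, the remaining tested gene of this list, differed by 2.12 ± 1.10 (limma adjusted p = 0.439), with -0.17 in pair 1 and 4.42 in pair 2. Sensors of other families had a median of 1.01 over 11 tested, or -0.03 in pair 1 and 1.502 in pair 2. Only Clec4e, a lectin receptor gene, rose past the test (difference 2.03 ± 0.12, limma adjusted p = 0.0394). Clec4d, its partner gene, stood at 362 and 276 FPKM in coculture 1 and 2, against 212 and 61.0 FPKM in mock 1 and 2. Clec4n differed by 1.37 ± 0.64 (limma adjusted p = 0.405), with 0.07 in pair 1 and 2.67 in pair 2. Nlrp3, an inflammasome sensor gene, differed by 1.43 ± 0.64 (limma adjusted p = 0.391), with 2.76 in pair 1 and 0.11 in pair 2.

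Of 16 textbook target genes, 10 were tested. Il1b and Cd40 reached the filter only through coculture, so their direction was set by it. Cxcl2, Ccl5 and Cd80 reached 1 FPKM in only 1 mock library, so they too needed a coculture library to be tested. No count over the tested targets is therefore given. Cxcl2, a neutrophil-attracting chemokine gene, differed by 7.54 ± 0.51 (limma adjusted p = 0.04995), Il1b, a cytokine gene, by 6.66 ± 0.32 and Ccl3, another chemokine gene, by 2.94 ± 0.14 (both limma adjusted p = 0.0270). Neither Acod1, the itaconate synthesis gene (difference 6.31 ± 0.47, limma adjusted p = 0.0543), nor Ptgs2, a prostaglandin synthesis gene (difference 4.63 ± 0.54, limma adjusted p = 0.0907), passed. Among the 6 untested targets, Nos2 stood at 0.710 and 44.1 FPKM in coculture 1 and 2, against 0.0490 and 0.030 FPKM in mock 1 and 2. Il6 stood at 0.113 and 3.01 FPKM in coculture 1 and 2, against a listed 0 and 0.056 FPKM in mock 1 and 2. Il10 did not exceed 1.18 FPKM, Cd86 0.225 FPKM and Cxcl1 0.0645 FPKM in any library, and Il12b was listed at 0 in all 4.

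**Figure D5:**
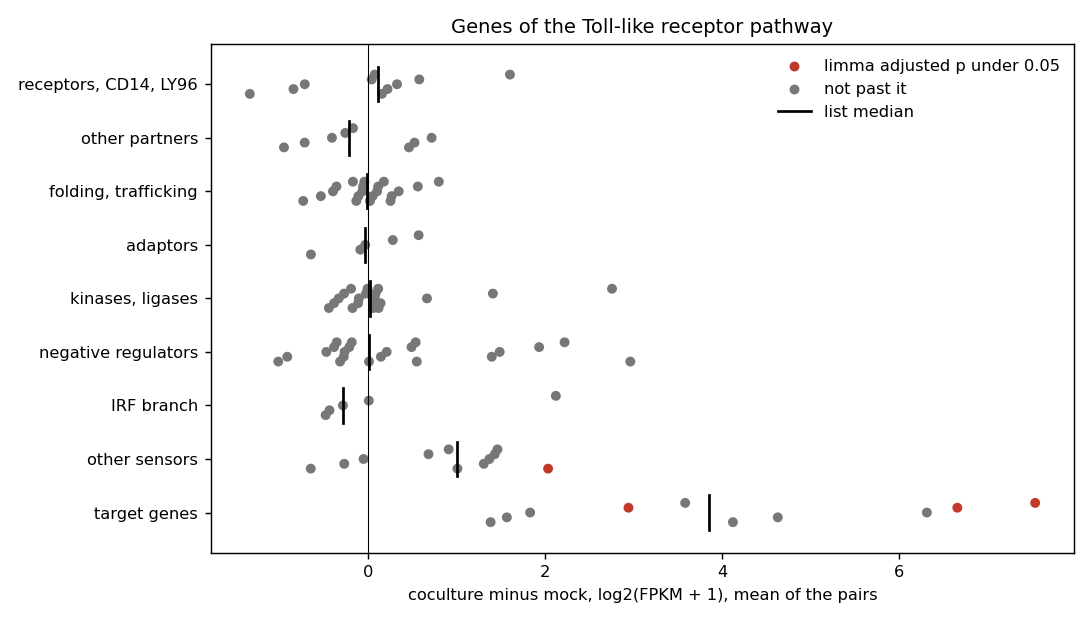
Mean difference of each tested gene, as coculture minus mock in log2(FPKM + 1), for the members and the 8 pathway lists with tested genes. Points are genes, black lines are list medians, and red points passed a limma adjusted p of 0.05. The members lie between -1.33 and 1.60, and the 4 red points are Clec4e among the other sensors and Cxcl2, Il1b and Ccl3 among the targets.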

How the data were processed

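RAW264.7 libraries, 2 with CT26 coculture and 2 mock, were read from 2 tables of FPKM that the authors deposited, 1 table a replicate number. The submitters' processing notes name Trim Galore, Subread, featureCounts and the build hg38, although the symbols are mouse. Versions, annotation and FPKM totals were not given in the sources used here. Unnamed rows (23) and rows with a repeated name (287), all in the first table, were left out. Genes reaching 1 FPKM in 2 or more libraries were tested in limma 3.58.1 (R 4.3.3) on log2(FPKM + 1), two-sided, with trended prior variance and the pair as a block, since the tables may have been normalized separately. Its residual degrees of freedom were 1 and its prior ones 3.43. It was tested on simulated data with equal noise in every gene, which does not show how it performs on these libraries. The pair was not shown to mark a shared culture or day, and whether replicates are separate cultures is not stated, so p-values measure only how far these libraries spread, possibly for technical reasons. A log2 difference on this scale understates the change of low genes. Members and lists were chosen with earlier results of these data known. All members and adaptors were named, and in other lists up to 4 genes of at least 2 FPKM with the largest difference of 1 sign, plus called genes. Alternatives changed the pseudocount (0.1, 0.5), filter (none, 5 FPKM), scaling (3 kinds), block, prior trend and libraries.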

Additional observations from a re-analysis of the deposited data

How the results depend on the processing

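With no replicate block, limma called 1 gene in place of 13, 0 pathway genes in place of 4 and still 0 members. The same-numbered libraries deviated together (correlation 0.76 across genes), which is a hint from the data and not from the labels. Over all genes the calls numbered 22 with a pseudocount of 0.1 (9 in the pathway), 26 with at least 5 FPKM (10), 26 after rescaling to a common total (10), 103 after median centring (14; over all genes 85 higher and 18 lower), 46 after quantile normalization (11), 1 with no trend in the prior variance (0) and 0 with no filter on low values (0; 530 higher and 984 lower by unadjusted p). Leaving out any 1 library, unblocked, left 0 calls over all genes and in the pathway (176 to 523 genes at an unadjusted p under 0.05), and the lone library is then assumed to vary like the other group. Among the members, median centring and quantile normalization each called 1, Cd14. A bound of 1.5-fold, chosen after seeing the data, put 3 members in place of 1 past it in both pairs (1 higher, 2 lower). Of 127 member values under alternatives, 119 kept their sign and side, 2 newly passed and 6 turned in sign. Tlr9 turned to -0.0021 after rescaling. Without 1 library, unblocked, Tlr2 reached from -0.21 to 0.87, Tlr3 from -0.25 to 0.40, Tlr6 from -0.49 to 0.80 and Tlr9 from -0.59 to 0.67 (-0.47 without coculture 2). Tlr1, Tlr3 and Tlr6 gave no value with at least 5 FPKM. The cause of these changes was not tested. With 2 libraries a group and about 58 to 104 estimated reads, a small difference in Tlr3 could not be detected.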

Other observations

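Cytosolic sensors of viral RNA, chosen after their values were seen, went opposite ways in the pairs, as did Tlr3 and 35.8% of all tested genes. In mock 1 and 2, Tlr3 stood at 1.04 and 0.961 FPKM. Ddx58 stood at 5.65 and 21.7 FPKM in coculture 1 and 2, against 6.996 and 2.08 FPKM in mock 1 and 2, and Ifih1 at 3.38 and 5.67 FPKM, against 3.81 and 1.36 FPKM. Sting1, the adaptor of cytosolic DNA sensing, was lower in both pairs, at 5.09 and 12.96 FPKM in coculture 1 and 2, against 8.06 and 22.0 FPKM in mock 1 and 2 (difference -0.65 ± 0.14). Neither Ddx58, Ifih1 nor Sting1 passed limma's test.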
